A study of Homo sapiens with 40 samples.

Results

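The peaks described here are the pericentromeric CENP-A peaks of the acrocentric chromosomes 13, 14 and 15 and of the smaller chromosomes 17 to 22. A peak belonged to this group when it shared no base with the centromere band of its chromosome and lay wholly within 5 Mb of that band, in hg19. The rule used position alone and no measured value. It took 739 of the 4416 peaks outside the bands in the 6 deposited lists, which hold 5748 peaks in all. The members were 52 peaks of control, 79 of the DAXX knockdown, 123 of the HIRA knockdown, 116 of the HJURP knockdown, 154 of the HIRA+DAXX knockdown and 215 of the HIRA+HJURP knockdown.

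The label of a group of smaller chromosomes holds only in part. Between 94.9% and 99.1% of the covered bases of each set lay on chromosomes 20 and 21, and no set had a member on chromosome 13, 19 or 22. The short-arm windows of chromosomes 13, 14, 15 and 22 hold 0 sequenced Mb in this assembly, so no peak could be called there, and the short-arm window of chromosome 21 holds 1.14 Mb of sequence.

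The cells were SW480, an established human colon cancer line, treated with siRNA for 72 hours. The groups were control (called untreated in the sample labels and control siRNA in the methods), single knockdowns of DAXX, HIRA or HJURP with 4 ChIP and 4 input libraries each, as for control, and double knockdowns of HIRA+DAXX and HIRA+HJURP with 2 ChIP and 2 input libraries each, 40 libraries in all. Native chromatin was precipitated with ACA serum, which comes from humans with autoantibodies to several centromere proteins and is not specific for CENP-A alone. The processed files used here hold 1 list of merged replicated peaks for each condition, with a start and an end and no height, score or read count. The depth behind a peak is not given in them, and the reads of the single libraries were not analysed here. The values therefore carry no replicate error, differences between conditions have no test, and all are descriptions of the 6 lists. The double knockdowns also had fewer libraries and single-end reads alone, and replicate number, read mode and the rule for calling a peak replicated cannot be told apart from the treatment in those 2 sets.

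CENP-A is the histone H3 variant that marks active centromeres. HJURP is its dedicated chaperone, whereas HIRA and DAXX are chaperones of the H3.3 variant, HIRA mainly in transcribed chromatin and DAXX, with ATRX, mainly in heterochromatin and repeats. Human centromeres are built on alpha satellite, a tandem repeat whose monomers lie head to tail and, in part, carry the CENP-B box, the binding site of CENP-B. The flanking pericentromeric heterochromatin holds other satellites, among them families built on diverged repeats of GGAAT, and blocks of segmental duplication.

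The overlap of the members of all sets gave 138 sites that together spanned 238.5 kb. The sequences at the widest of them show the repeats on which most of the covered bases lay, and are printed in hg19 on the plus strand, 300 bases each, with every GGAAT or its reverse complement ATTCC in capitals. The first 3 are the centres of the widest sites found in all 6 sets and the last 3 those of the widest sites with a peak in each single knockdown and none in control.
S112, chr21:10722599-10722898: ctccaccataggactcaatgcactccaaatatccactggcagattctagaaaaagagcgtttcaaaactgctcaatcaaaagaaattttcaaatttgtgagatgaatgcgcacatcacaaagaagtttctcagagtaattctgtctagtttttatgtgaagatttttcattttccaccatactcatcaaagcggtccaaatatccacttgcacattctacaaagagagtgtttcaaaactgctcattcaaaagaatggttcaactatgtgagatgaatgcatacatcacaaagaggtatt
S114, chr21:10757656-10757955: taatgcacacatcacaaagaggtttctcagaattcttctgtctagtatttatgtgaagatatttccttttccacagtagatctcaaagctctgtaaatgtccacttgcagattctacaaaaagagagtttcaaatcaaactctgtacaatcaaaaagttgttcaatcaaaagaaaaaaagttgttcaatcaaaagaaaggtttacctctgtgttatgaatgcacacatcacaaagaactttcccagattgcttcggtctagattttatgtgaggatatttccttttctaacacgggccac
S131, chr21:10851841-10852140: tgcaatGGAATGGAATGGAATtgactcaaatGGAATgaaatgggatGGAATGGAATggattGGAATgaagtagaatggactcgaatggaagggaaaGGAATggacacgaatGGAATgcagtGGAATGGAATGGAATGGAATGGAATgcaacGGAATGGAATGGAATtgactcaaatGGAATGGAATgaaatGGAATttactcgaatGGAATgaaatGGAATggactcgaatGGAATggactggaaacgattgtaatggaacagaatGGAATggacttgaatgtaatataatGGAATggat
S117, chr21:10782343-10782642: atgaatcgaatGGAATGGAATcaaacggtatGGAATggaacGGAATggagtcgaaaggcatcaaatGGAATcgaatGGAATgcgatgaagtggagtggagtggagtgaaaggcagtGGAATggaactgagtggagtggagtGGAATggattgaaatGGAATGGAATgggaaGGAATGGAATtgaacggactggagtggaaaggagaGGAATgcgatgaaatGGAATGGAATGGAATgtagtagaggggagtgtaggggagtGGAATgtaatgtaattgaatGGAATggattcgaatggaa
S120, chr21:10796967-10797266: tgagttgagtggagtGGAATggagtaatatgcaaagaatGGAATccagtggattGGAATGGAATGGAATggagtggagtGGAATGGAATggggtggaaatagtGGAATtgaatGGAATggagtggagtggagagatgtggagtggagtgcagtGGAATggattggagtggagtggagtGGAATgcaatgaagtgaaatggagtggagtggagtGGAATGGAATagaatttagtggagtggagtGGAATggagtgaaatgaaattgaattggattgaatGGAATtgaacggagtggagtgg
S135, chr21:14357646-14357945: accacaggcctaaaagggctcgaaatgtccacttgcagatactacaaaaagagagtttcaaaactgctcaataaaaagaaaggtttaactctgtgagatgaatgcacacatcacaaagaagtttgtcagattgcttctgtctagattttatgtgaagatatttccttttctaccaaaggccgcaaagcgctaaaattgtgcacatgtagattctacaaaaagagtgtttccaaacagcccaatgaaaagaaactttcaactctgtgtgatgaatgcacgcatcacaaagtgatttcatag
S112, S114 and S135 held no pentamer in these windows. In S131, S117 and S120 the pentamers took 41.7%, 30% and 25% of the printed bases. None of these windows held a CENP-B box.

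A further window, chosen after the values were seen, shows a CENP-B box in capitals. It comes from S134 on 21q, the site with the most boxes among those found in all 6 sets.
S134, chr21:14338984-14339283: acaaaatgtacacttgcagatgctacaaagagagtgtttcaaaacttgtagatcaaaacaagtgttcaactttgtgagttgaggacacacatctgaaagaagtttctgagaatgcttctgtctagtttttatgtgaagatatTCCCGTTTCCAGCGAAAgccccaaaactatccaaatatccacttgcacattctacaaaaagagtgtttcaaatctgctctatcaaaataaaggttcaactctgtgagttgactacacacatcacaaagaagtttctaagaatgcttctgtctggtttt
S134 held 8 boxes, all on the minus strand, at spacings of 334 to 4083 bases.

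In the single knockdowns the pericentromeric peaks covered more bases than in control. They covered 96.7 kb in control, 196.8 kb when DAXX, 167 kb when HIRA and 151.4 kb when HJURP was depleted, which is 2.04, 1.73 and 1.57 times control. The HIRA+DAXX knockdown covered 72.7 kb, 0.752 times control, and the HIRA+HJURP knockdown 100.6 kb, 1.04 times control. Every single knockdown was above control under each alternative listed in the closing section, with ratios from 1.34 to 3.27. The double knockdowns were not so stable, since the ratio of HIRA+DAXX rose to 1.03 when neighbouring peaks up to 1000 bp apart were joined, and that of HIRA+HJURP fell to 0.653 when only peaks of at least 500 bp were counted.

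The number of peaks was ordered differently from the coverage. It was 1.52, 2.37 and 2.23 times control in DAXX, HIRA and HJURP, 2.96 times in HIRA+DAXX and 4.13 times in HIRA+HJURP. The median peak width was 1518.5 bp in control and 985, 809 and 819.5 bp in the DAXX, HIRA and HJURP knockdowns. The double knockdowns had medians of 320 bp (HIRA+DAXX) and 253 bp (HIRA+HJURP). The double knockdowns thus had the most and the narrowest peaks, while the DAXX knockdown had the widest one, of 21864 bp, against 5804 bp in control.

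**Figure D1:**
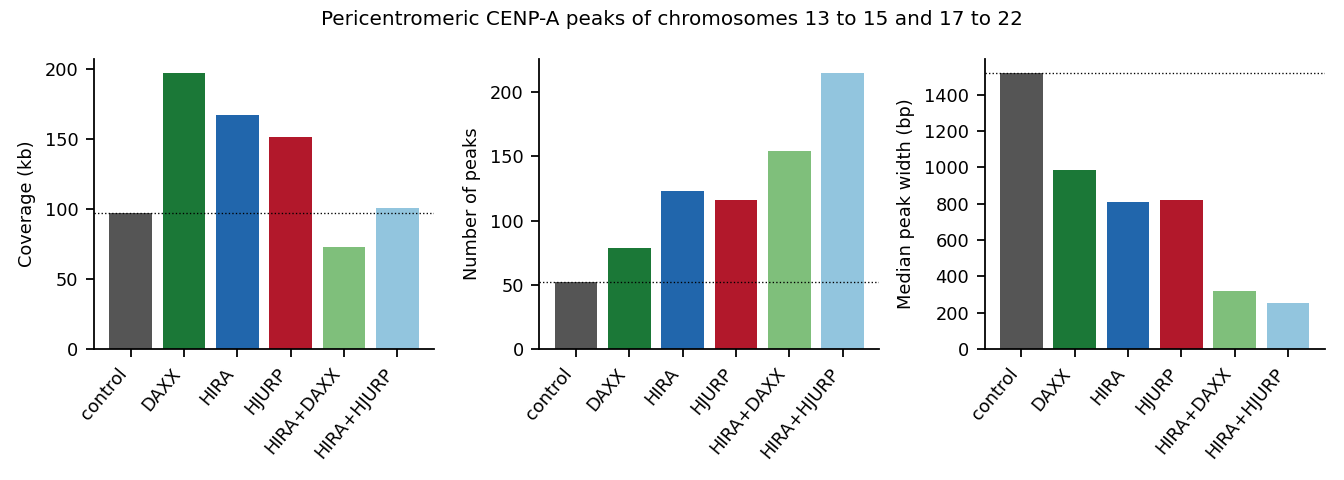
Coverage in kb, number of peaks and median peak width in bp of the pericentromeric peaks of chromosomes 13 to 15 and 17 to 22, with 1 bar for each deposited peak set and a dotted line at control. Coverage was highest in the 3 single knockdowns (151.4 to 196.8 kb), whereas the number of peaks was highest and the median width lowest in the double knockdowns. There are no error bars because 1 merged list per condition was used.

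The members lay close to the bands. The median distance to the band was 143 to 206 kb in the 6 sets, and 85.4% to 98.7% of the peaks of each set were within 1 Mb. The farthest member was a HIRA peak on chromosome 14 that reached 1.71 Mb from the band, so the 5 Mb limit had no member near it, and the nearest peak beyond the limit on these chromosomes was 11.3 Mb away. At the inner limit, the nearest member was a HIRA+HJURP peak of 89 bp at 9.51 kb from the band of chromosome 18, and a peak of each set that ended 7.77 to 8.19 kb inside the same band was left out by the rule.

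A set of 3 blocks of sites, with gaps of 50 kb or less inside a block, held 83.5% to 92.6% of the coverage of each set. The gap was chosen after the data were seen. The largest block lay on the short arm of chromosome 21 at chr21:10697934-10889271, from 10.7 kb outside the band outwards, and held 24 sites. The 3-site block at chr21:14338176-14369463 began just beyond the centromere gap of the assembly on the long-arm side. The third, at chr20:29583365-29652200, held 41 sites on 20q around the pseudogene FRG1BP, 183 kb from the band. The other 70 sites were spread over smaller blocks.

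The 21p block carried 65 kb of peaks in control, 121.996 kb with DAXX depleted, 103.3 kb with HIRA depleted and 101.7 kb with HJURP depleted. The double knockdowns carried 56.1 kb (HIRA+DAXX) and 70.7 kb (HIRA+HJURP). The control coverage lay in 27 peaks and the DAXX coverage in 23, with a median width of 1848 and 3495 bp, so that the higher DAXX coverage came with fewer and wider peaks. The HIRA+DAXX and HIRA+HJURP sets had 97 and 104 peaks there, with medians of 443 and 340.5 bp.

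The 21p block held 2 main kinds of repeat. Tiles of 1000 bases were scored for self-match, the best share of bases equal to the base 160 to 180 positions further on, and for the share of bases in GGAAT or ATTCC. Tiles with a self-match of at least 0.5 and few pentamers lay between chr21:10698001 and 10767000, 133 to 202 kb from the band. This stretch of 69 kb held all 50 such tiles of the 21p window, so not every tile of it was in the class. Of the 50, 42 matched best at 171 bp, the length of an alpha-satellite monomer. The 1000 bases at the centre of S114, in this stretch, had a self-match of 0.43, below the limit. Tiles with over 25% pentamer lay between chr21:10774001 and 10861000, 39 to 126 kb from the band, which held 86 of the 89 such tiles of the window. The other 3 lay farther from the band, had no peak in any set, and are counted in the class below. Of the 89, 36 matched best at 160 bp, a multiple of 5. The sequence between the pentamer-rich tile nearest to the band and the band was of neither kind and was almost free of peaks.

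Coverage differed more between control and the single knockdowns in the GGAAT-rich tiles than in the alpha-satellite-like tiles, those with the self-match and few pentamers. Control peaks covered 19.5% of the GGAAT-rich bases, against 67.1% in DAXX, 53.5% in HIRA and 51.2% in HJURP. These are 3.44, 2.74 and 2.62 times control. In the alpha-satellite-like tiles, control already covered 73.4% of the bases, and the DAXX, HIRA and HJURP knockdowns covered 99.4%, 86% and 88.3%, or 1.35, 1.17 and 1.2 times control. A ratio in these tiles cannot exceed 1.36, since the control peaks left 26.6% of their bases uncovered. The HIRA+DAXX set covered 50.9% of the alpha-satellite-like tiles, 0.693 times control, and 25% of the GGAAT-rich tiles, 1.28 times control. The HIRA+HJURP set covered 82.4% and 20.4%, or 1.12 and 1.05 times control. The difference between tile classes was not tested, because every tile of a class shares the same 6 lists.

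**Figure D2:**
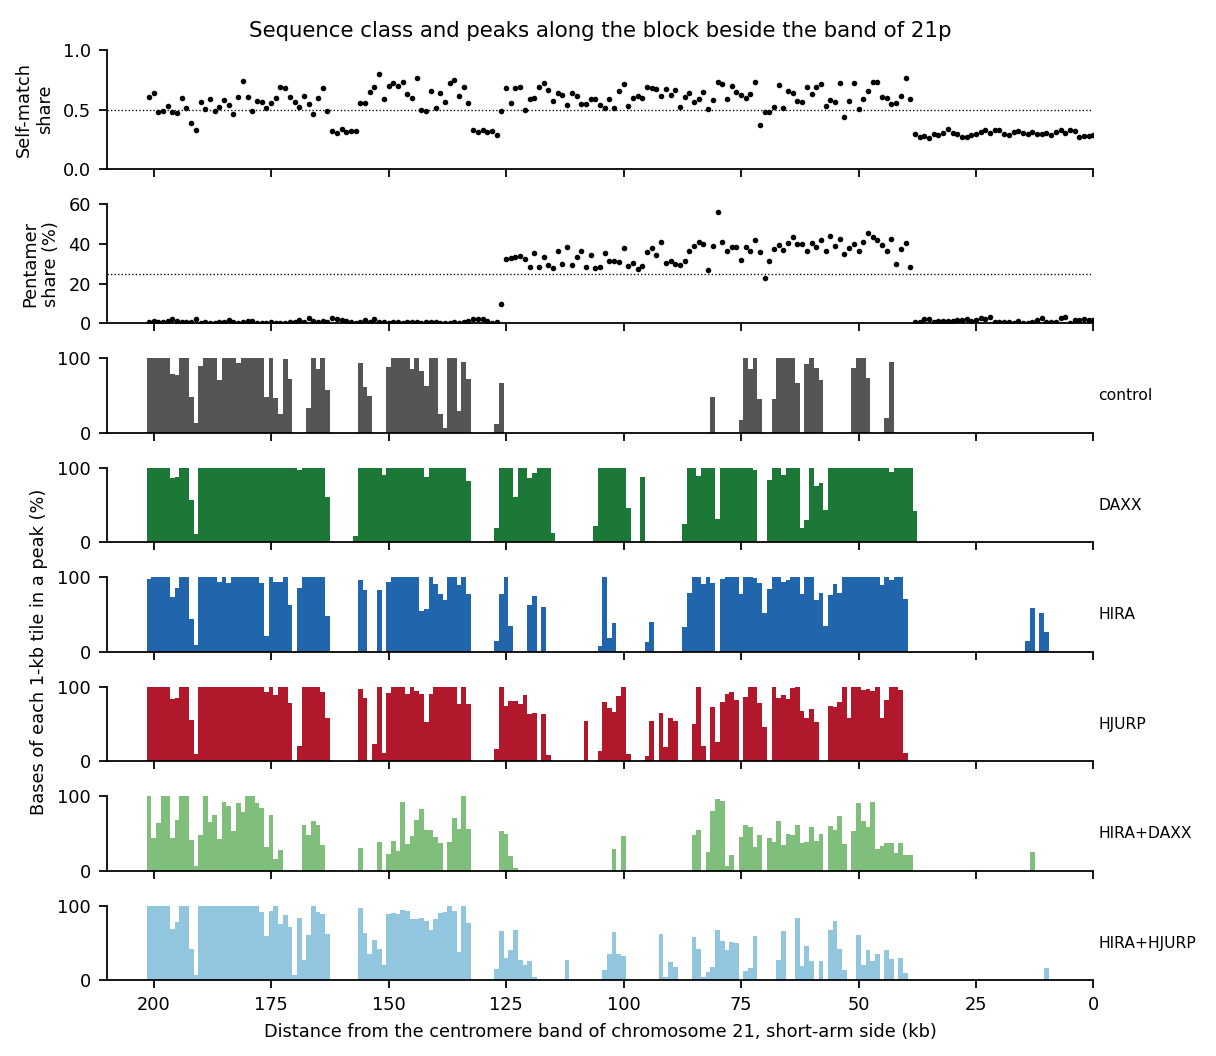
Peaks along the 21p block, by distance from the centromere band of chromosome 21 in kb. The top panels give the self-match share and the pentamer share (%) of each 1-kb tile, with dotted lines at 0.5 and 25%, and the lower panels give the share of each tile's bases in a peak for each of the 6 sets. Peaks of all sets lie along the alpha-satellite-like stretch at 133 to 202 kb, whereas in the GGAAT-rich stretch at 39 to 126 kb control has few peaks and the 3 single knockdowns many.

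The named sites of this block lie in the stretches counted above, so their values are no separate support. S117 and S120 were named for a peak in each single knockdown and none in control, which fixed that contrast in advance. S112, at chr21:10708873-10736624 in the alpha-satellite-like stretch, was the widest of all sites with 27752 bp. Its control peaks covered 21344 bp, and the DAXX, HIRA and HJURP peaks covered 27685, 24960 and 25420 bp. The double knockdowns covered 15389 bp (HIRA+DAXX) and 24105 bp (HIRA+HJURP), in 16 and 17 peaks against 9 in control. S114, at chr21:10748782-10766829, had 14458 bp in control, 17921, 16110 and 16656 bp in the single knockdowns, and 9301 and 15296 bp in HIRA+DAXX and HIRA+HJURP. At both sites HIRA+DAXX was the lowest set and DAXX the highest.

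In the GGAAT-rich stretch, S131 at chr21:10842562-10861419 had 4767 bp of its 18858 bp covered in control, 25.3%. The DAXX, HIRA and HJURP knockdowns covered 18798, 16396 and 14212 bp, or 99.7%, 86.9% and 75.4%. The double knockdowns covered 8296 bp (HIRA+DAXX) and 4957 bp (HIRA+HJURP). S120 at chr21:10793776-10800457 had no control peak and 6680, 1653 and 4289 bp in the DAXX, HIRA and HJURP sets, with 761 and 1818 bp in the double knockdowns. S117 at chr21:10780859-10784127 had peaks in the single knockdowns alone, of 3269, 596 and 722 bp. DAXX covered almost the whole of each of these 3 sites. A site is the union of its peaks, so the set with the widest peaks covers most of it in part by construction.

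**Figure D3:**
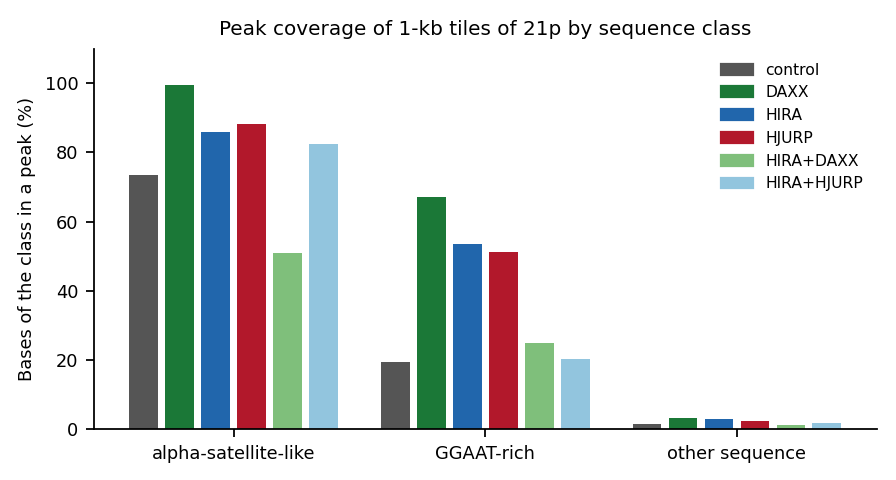
Share of the bases of 3 sequence classes of 21p that lay in a peak (%), for each of the 6 sets, over 50 alpha-satellite-like tiles, 89 GGAAT-rich tiles and the other tiles of the window. Control covered 73.4% of the first class and 19.5% of the second, and the DAXX knockdown 99.4% and 67.1%.

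The block of 21q beside the centromere gap was alpha-satellite-like, with a best match at 171 bp at each of its 3 sites, and it held all 10 CENP-B boxes found in the members. It carried 14.1 kb of peaks in control, 31.1 kb in DAXX, 20.7 kb in HIRA, 17 kb in HJURP, 4.32 kb in HIRA+DAXX and 10.5 kb in HIRA+HJURP. These values are 2.2, 1.46, 1.2, 0.306 and 0.746 times control, and HIRA+DAXX had its lowest ratio among the 3 blocks here. In the DAXX set the block lay in 3 peaks with a median of 11999 bp.

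Within it, S134 at chr21:14338176-14351700 was covered over 10241 bp in control, and over 13525, 11327, 7348, 2090 and 5202 bp in DAXX, HIRA, HJURP, HIRA+DAXX and HIRA+HJURP. HJURP was below control at this site. S135 at chr21:14351797-14363795 lay next to it and had no control peak, by the rule that named it. DAXX covered its full 11999 bp in 1 peak, and HIRA, HJURP, HIRA+DAXX and HIRA+HJURP covered 6372, 5283, 986 and 2695 bp. Beyond it, at S136 (chr21:14363921-14369463), control again had 3869 bp, beside 5543, 2966, 4354, 1243 and 2630 bp in the knockdowns in the same order. The control peaks of this block thus left a stretch open in its middle that the knockdown peaks covered in part or, for DAXX, in full. The bounds of S135 are those of the DAXX peak, so its full coverage there follows from how a site is defined.

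The 20q block was of neither repeat class. None of its 41 sites reached a self-match of 0.5 or a pentamer share over 25%, and its median GC content was 33%. Its coverage was 9.13 kb in control, 17.9, 15.5 and 13.6 kb in the DAXX, HIRA and HJURP knockdowns, 6.92 kb in HIRA+DAXX and 11.5 kb in HIRA+HJURP, or 1.97, 1.7, 1.48, 0.758 and 1.27 times control. The number of peaks went from 10 in control to 24, 30 and 23 in the single and 25 and 45 in the double knockdowns. The widest site of chromosome 20, S61 at chr20:29649134-29652200, was in all 6 sets with 2945, 3061, 2432, 2865, 1520 and 2031 bp in control, DAXX, HIRA, HJURP, HIRA+DAXX and HIRA+HJURP. At S61 control was thus higher than HIRA and HJURP, and the higher coverage of this block in those sets lay at other sites.

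**Figure D4:**
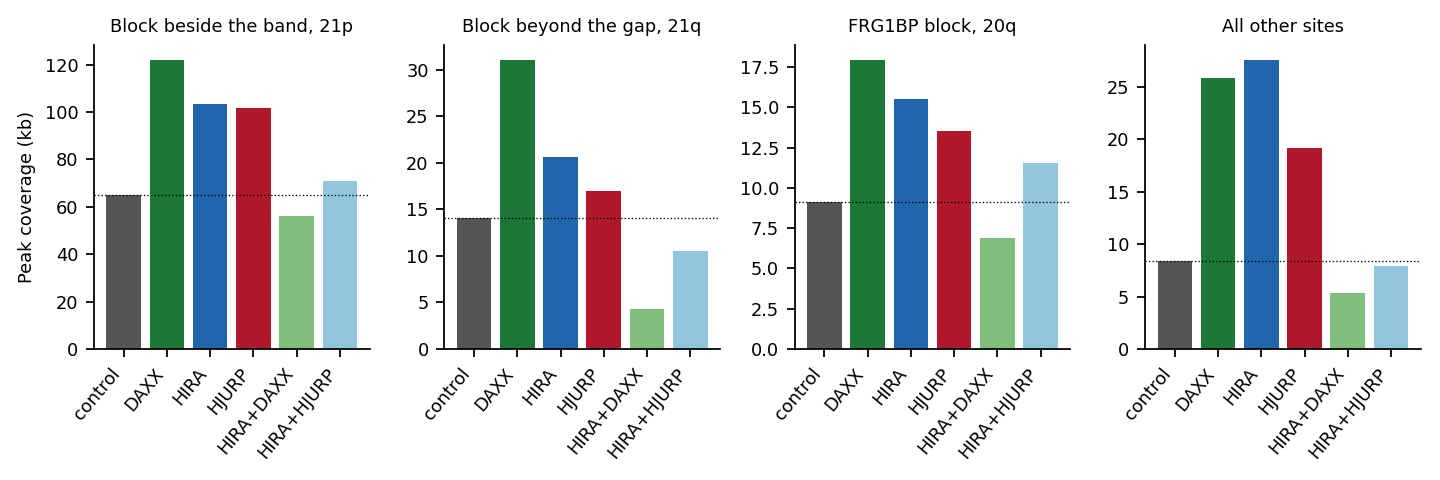
Peak coverage in kb of the 21p block beside the band, the 21q block beyond the centromere gap, the FRG1BP block of 20q and all other sites, with 1 bar for each set, a dotted line at control and a separate scale in each panel. In each panel the 3 single knockdowns are above control and HIRA+DAXX is the lowest set.

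Outside the 3 blocks the coverage was small, and the ratios were larger in the single knockdowns and smaller in the double ones than over all members. It was 8.44 kb in control, 25.8 kb in DAXX, 27.6 kb in HIRA and 19.2 kb in HJURP, which is 3.06, 3.27 and 2.27 times control. HIRA+DAXX had 5.35 kb and HIRA+HJURP 7.89 kb, or 0.634 and 0.934 times control. On 15q, 10 sites at chr15:20856166-20878423 had no control peak. They carried 5.175 kb in DAXX, 6.15 kb in HIRA, 5.115 kb in HJURP, 0.616 kb in HIRA+DAXX and 0.82 kb in HIRA+HJURP. On distal 21p, 10 sites at chr21:9420732-9474295 had no peak in control or HIRA+DAXX and 3.75, 4.99, 1.34 and 0.561 kb in DAXX, HIRA, HJURP and HIRA+HJURP. The remaining chromosomes had few members, with 1 site on chromosome 14, 3 on chromosome 17 and 2 on chromosome 18.

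Most sites were narrow and found in few sets, and the sites in all 6 sets were wider. Of the 138 sites, 51 were in 1 set (37%, 95% Wilson interval 29.4% to 45.3%) with a median width of 312 bp, and 21 were in all 6 sets (15.2%, 10.2% to 22.1%) with a median of 3435 bp. The Wilson intervals cover counting error only. A site is the union of its overlapping peaks, so its width and its number of sets are tied in part by construction. Over all 1195 sites outside the bands, 40.4% were in 1 set and 11.1% in all 6, and over the 219 pericentromeric sites of the other chromosomes 34.2% and 18.7%, so nothing particular to the 9 chromosomes is read from these shares. The 21 common sites spanned 144.8 kb of the 238.5 kb. A control peak was present at 32 sites and absent from 106. Of these 106, 22 had peaks in all 3 single knockdowns, and 13 in all 5 knockdowns. No such counts were made for the sites elsewhere, so these describe the members only and show nothing particular to them.

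The sites of a single set were unevenly spread over the sets. The HIRA+HJURP list alone held 22 of them, 89 to 299 bp wide, of which 11 lay on chromosome 20 and 9 on chromosome 21. The HIRA list alone held 9, the DAXX list 7, the HJURP list 6, control 5 and HIRA+DAXX 2. Member peaks numbered 215 in HIRA+HJURP, 154 in HIRA+DAXX, 123 in HIRA, 116 in HJURP, 79 in DAXX and 52 in control. The same counts were not made over all sites outside the bands, so nothing particular to the members is read from them. The pair of double knockdowns, and no other set, shared 3 sites, namely S64 at chr20:29829327-29829722, S94 at chr21:10017849-10018119 and S84 at chr21:9980179-9980339. S64, of 396 bp, had 79.5% of its bases in GGAAT or ATTCC.

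**Figure D5:**
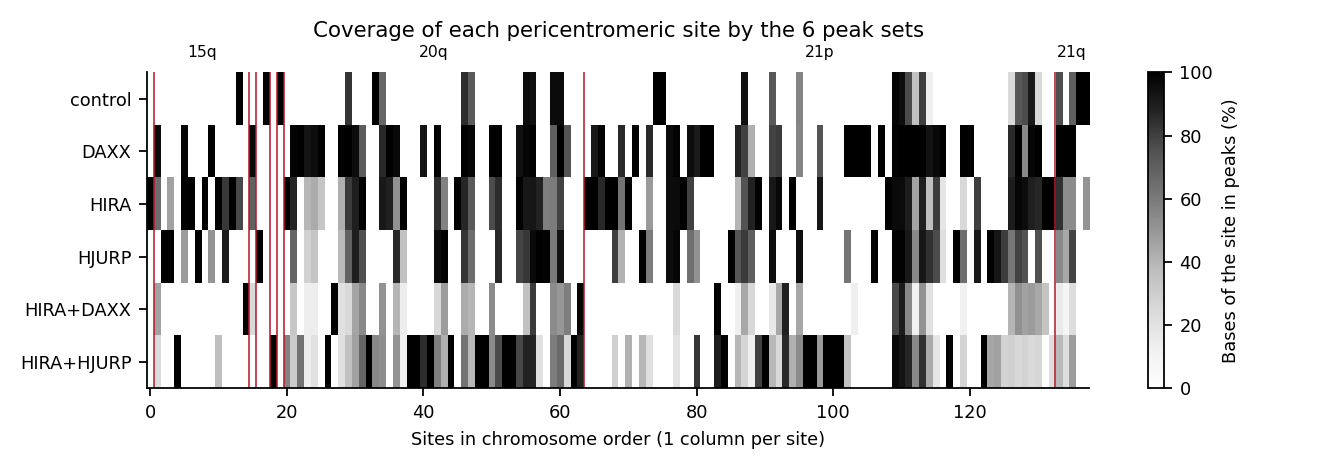
Share of each site's bases in peaks (%, white 0 to black 100) for the 138 sites in chromosome order, 1 column per site and 1 row per peak set, with red lines between chromosome arms. The 21 sites found in all 6 sets stand out as columns with no white cell, and 106 columns are white in the control row.

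The sharing of bases with control was compared for each knockdown. In the DAXX set 51 of 79 members lay wholly off the control peaks (64.6%, Wilson interval 53.6% to 74.2%), where 73.6% of all DAXX peaks outside the bands did so. The counts were 74 of 123 for HIRA (60.2%, 51.3% to 68.4%) beside 60.7% of all its peaks, and 69 of 116 for HJURP (59.5%, 50.4% to 68%) beside 71.4%. For HIRA+DAXX they were 60 of 154 (39%, 31.6% to 46.8%) beside 50.9%, and for HIRA+HJURP 125 of its members (58.14%, 51.5% to 64.5%) beside 68.5%. The share of the members was below the background in each set, and close to it for HIRA. Many of these peaks are neighbours in the same block and are not independent. The intervals cover counting error only and are no test against the background, of which the members are part. In the pericentromeric peaks of the other chromosomes the shares were 46.6%, 43.8%, 35.2%, 41.2% and 45.7% in the same order of sets.

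By bases, the new share was 55% for DAXX, 48.6% for HIRA, 45.6% for HJURP, 30.9% in HIRA+DAXX and 35% in HIRA+HJURP. Over all peaks outside the bands it was 68.9%, 54.6%, 69.5%, 41.9% and 64.9% in the same order. It was thus lower in the members than over all these peaks in each set, and lowest in HIRA+DAXX in both. In the pericentromeric peaks of the other chromosomes it was 39.06%, 33.35%, 27.88%, 38.86% and 38.28% in the same order. Against these peaks the members were higher in each single knockdown and lower in both double knockdowns, and HJURP was lowest there. These differences were not tested. New bases came from whole new peaks and from peaks that reached beyond a control peak. For DAXX these gave 66 kb and 42.2 kb, for HIRA 57.9 and 23.2 kb, and for HJURP 54.7 and 14.4 kb. In the double knockdowns, extended peaks gave 2.48 kb of the 22.5 kb of new bases in HIRA+DAXX and 2.97 kb of the 35.2 kb in HIRA+HJURP.

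The control peaks were mostly met again in the knockdowns. A DAXX or HIRA peak touched 44 of the 52 control members, where 13.1% and 14.5% of all control peaks outside the bands were untouched by these sets. HJURP peaks touched 40, beside 17.3% untouched over all control peaks, HIRA+DAXX peaks 42, beside 21.8%, and HIRA+HJURP peaks 45, beside 14.5%. By bases, 91.6%, 88.8% and 85.1% of the 96.7 kb of control were covered again in DAXX, HIRA and HJURP. The share was 51.9% in HIRA+DAXX and 67.7% in HIRA+HJURP, so the double knockdowns touched as many control peaks but covered fewer of their bases. Over all control peaks outside the bands the shares were 88.1%, 80.9%, 73.3%, 44.1% and 55.9% in the same order. The lower shares of the double knockdowns were thus not particular to the members.

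The double knockdowns lay within the single ones for the greater part. Of the HIRA+DAXX bases, 94.6% lay in DAXX peaks and 91.5% in HIRA peaks, and in turn 34.9% of the DAXX bases and 39.8% of the HIRA bases lay in HIRA+DAXX peaks. Of the HIRA+HJURP bases, 84.3% lay in HJURP peaks and 84.4% in HIRA peaks, against 56% and 50.9% the other way. The coverage of HIRA+DAXX was 0.369 and 0.435 times that of the DAXX and HIRA sets, and the coverage of HIRA+HJURP 0.665 and 0.602 times that of the HJURP and HIRA sets. The numbers of peaks stood the other way round, at 1.95, 1.25, 1.85 and 1.75 times the same single knockdowns.

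Among the single knockdowns, 87.2% of the HIRA bases and 89.9% of the HJURP bases lay in DAXX peaks. Of the DAXX bases, 74% lay in HIRA peaks and 69.1% in HJURP peaks. DAXX covered 1.18 times the bases of HIRA and 1.3 times those of HJURP in 0.642 and 0.681 times as many peaks.

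A minority of the sites lay on genes. By the GENCODE annotation of release 44 lifted to this build, 47 of 138 sites overlapped an annotated gene (34.1%, Wilson interval 26.7% to 42.3006%), 31 a pseudogene, 15 a long non-coding RNA and 3 a protein-coding gene. In the 21p and 21q blocks the count was 0 of 24 and 0 of 3, and in the 20q block 25 of 41. The share of other sites or of the windows that overlaps a gene was not computed. These counts therefore describe where the sites lie and show neither a preference for genes nor an avoidance of them. FRG1BP, a pseudogene of the FRG1 family, had 18 sites, in its introns and exons. They carried 2.44 kb in control, 5.09, 5.21 and 4.14 kb in DAXX, HIRA and HJURP, 1.88 kb in HIRA+DAXX and 4.34 kb in HIRA+HJURP. The long non-coding gene FAM242A next to it had 6 sites, none with a control peak, and 4.06, 2.21, 1.17, 0.522 and 1.04 kb in the 5 knockdowns in the same order.

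NBEAP1, a pseudogene on 15q, had 8 sites with no control peak and 3.89, 5.28, 3.9, 0 and 0.504 kb in DAXX, HIRA, HJURP, HIRA+DAXX and HIRA+HJURP. The widest of them, S6 at chr15:20865271-20867452, was covered over 2132, 2162 and 1043 bp in the single knockdowns and in neither double knockdown. On 21p, the non-coding gene ENSG00000279501 had 4 sites with no control peak and 5.03, 5.28, 4.57, 0.757 and 0.587 kb. Both genes were thus covered in each single knockdown and hardly in the double ones. Of 80 genes of listed pericentromeric families in the windows, among them POTE, ANKRD20A, GOLGA and olfactory receptor genes, FRG1BP alone lay at a site.

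The 3 sites on protein-coding genes all had a control peak. S138 at chr21:15754393-15757035 lay over the start and first coding exon of HSPA13, which encodes a member of the heat shock protein 70 family, and was 2643 bp wide in control and 1341 bp in HIRA, with no peak in the other sets. S18 at chr17:26662509-26662820 held the facing starts of IFT20, an intraflagellar transport gene, and TNFAIP1, and S20 at chr18:19319941-19320966 lay on an untranslated exon of MIB1, an E3 ubiquitin ligase gene of the Notch pathway. Both were in control alone, with 312 and 1026 bp. The other control-only sites were S137 at chr21:15399377-15400094 over the start of a long non-coding RNA gene, S75 at chr21:9825459-9825796, 0.036 kb from MIR3648, and S76 at chr21:9825973-9826300 over MIR3648 and MIR3687. The GC content of the 5 control-only sites was 50.4% to 79%, and 1 of the other 133 sites was over 50%. GC content and gene starts of control-only sites were not counted outside the members. With 5 sites, the values are a description and were not tested.

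Over the 9 chromosomes, both repeat classes were found at a larger share of the sites than of evenly placed windows. The share was smaller than at the pericentromeric sites of the other chromosomes. Neither difference was tested. A self-match of at least 0.5 was found at 24 of 138 sites (17.4%, Wilson interval 12% to 24.6%), beside 0.662% of 6498 windows placed every 10 kb within 5 Mb of the bands of the 9 chromosomes and 101 of the 219 sites of the other chromosomes (46.12%). Most pentamer-rich sites also pass this score. Without the pentamer-rich sites 7 were left (5.07%), all with a best match at 171 bp, beside 0.492% of the windows and 24.2% of the sites of the other chromosomes. A pentamer share over 25% was found at 20 sites (14.5%), against 0.185% of the windows and 60 of the 219 sites (27.4%). Such windows are themselves more frequent on 21p, where 10.6% passed the self-match score and 7.96% the pentamer share. Of the 69 sites on 21p, 26.1% and 24.6% did so. Without the pentamer-rich ones, the self-match was found at 4.35% of the 21p sites and 3.54% of the 21p windows, which are close. The CENP-B box was searched on both strands and was present in 2 of 138 sites, in 3 of the 6498 windows and in 39 of the 219 sites of the other chromosomes (17.8%). Of the 76-base words at a site, as long as a read, a median of 98.1% occurred once in the reference, and in each site over 50% did.

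The values of the other chromosomes were set beside these, without a test. Their pericentromeric peaks covered 158.4 kb in control, and 1.39, 1.1 and 0.722 times that in DAXX, HIRA and HJURP and 0.439 and 0.484 times in HIRA+DAXX and HIRA+HJURP. The ratio of each knockdown was thus lower there than the 2.04, 1.73, 1.57, 0.752 and 1.04 of the members, and HJURP was below control there and above it in the members. Peaks over 5 Mb from any band had ratios of 4.99, 2.58, 4.85, 1.12 and 3.21, each higher than that of the members. The members' share of all coverage outside the bands was 24.4% in control, 17.5% in DAXX, 23.6% in HIRA, 15.9% in HJURP, 24.1% in HIRA+DAXX and 15.9% in HIRA+HJURP.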

How the data were processed

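CENP-A native ChIP-Seq peaks of SW480 cells were taken as deposited. Per the methods and labels, the authors used Trimmomatic for trimming and Bowtie2 2.2.6 for alignment to hg19, filtered by mapping quality, called peaks with MACS against each input, and kept merged peaks found in at least 3 replicates, with no rule given for the double knockdowns. The deposited files hold peak starts and ends in hg19 and no read count or score, so the depth behind a peak is not given in them, and single libraries were not analysed here. Reads of satellite sequence are kept or lost by the mapping filter, which can move these peaks.

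Coverage is the summed width of peaks, and new or common bases came from base-level intersection, checked on simulated data and against bedtools. Sites were unions of members that share a base. Self-match, pentamers, the CENP-B box and words were computed from the GRCh37 reference, in which every peak ends within its chromosome, with Python 3.11.15, numpy 2.4.6, pysam 0.24.0, scipy 1.17.1 and matplotlib 3.10.9. The band coordinates came with the rule for the group. Named sites were the widest on each chromosome, the 3 widest in all 6 sets, in all 3 single knockdowns and not control, in control alone and in both double knockdowns alone, and sites over a coding exon. Named genes lay over a named site, over the most sites, or in the listed families. S18, S76, S134 and S136 were named after their values were seen. The members and lists were chosen with earlier results of these data known. The pentamer split, the blocks and the removal of blocks were added after seeing the data.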

Additional observations from a re-analysis of the deposited data

How the results depend on the processing

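No paired analysis was possible because the processed files used here hold 1 merged list per condition, in which no replicate can be told apart or left out, and the single libraries were not analysed here. The cause of the changes below was not tested. Of 91 alternative values, 66 stayed close to the reported one, 20 moved further and 5 crossed a ratio of 1. Close means within 1.5 times the reported ratio or count, or within the Wilson interval of the reported share. A window of 2.5 Mb could change no value, since no member reached farther than 1.71 Mb from its band. Its values are among the 66. The new share is a share of bases, but its interval was computed with the number of peaks as the sample size. For the new share the interval is thus only a mark for sorting the alternatives and does not measure an error. The ratios of the single knockdowns to control moved most without the 3 largest blocks, to 3.06 for DAXX and 3.27 for HIRA. For HIRA+DAXX, the ratio of 0.752 became 2.96 by number of peaks, 0.467 for peaks of at least 500 bp and 1.03 when peaks within 1000 bp were merged. For HIRA+HJURP, the ratio of 1.04 became 4.13 by number of peaks, 0.653 for peaks of at least 500 bp, 0.946 without the largest block of chromosome 21 and 0.934 without the 3 largest blocks. Leaving out each chromosome in turn crossed no ratio of 1. The bases in wholly new peaks alone were 33.5% (DAXX), 34.7% (HIRA) and 36.2% (HJURP) of the bases. Without the largest block the new share was 66.6% (DAXX), 63.6% (HIRA) and 58% (HJURP) in the single knockdowns and to 43.9% (HIRA+DAXX) and 49.4% (HIRA+HJURP) in the double ones. For peaks of at least 500 bp it was 21.2% for HIRA+DAXX and 14.8% for HIRA+HJURP, and for HIRA+HJURP it was 41.8% with merging and 48% without chromosomes 13, 14, 15, 21 and 22. The number of sites in all 6 sets, 21, was 13 with peaks of all sets within 1000 bp as 1 site and 12 with peaks of at least 500 bp. The share of sites with a self-match of at least 0.5, 17.4%, was 10.9% at a self-match of 0.6 and 5.07% without GGAAT-rich sites. The removal of blocks and of GGAAT-rich sites was added after seeing the data. Depth per peak is not given in these files, hg19 holds little of the acrocentric short arms, and the share of satellite reads lost to mapping was not tested.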

Other observations

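A smaller block of 16 sites on 21p, at chr21:9980179-10033438, had 2.53 kb of peaks in control, 5.7 kb in DAXX, 6.24 kb in HIRA, 5.81 kb in HJURP, 2.57 kb in HIRA+DAXX and 3.98 kb in HIRA+HJURP. It held no site of either repeat class and no annotated gene, and a median of 78.4% of its 76-base words occurred once in the reference, the lowest value of the blocks with at least 3 sites. At chr21:10367661-10444798, 4 sites carried 2.44 kb in DAXX, 0.409 kb in HJURP and 0.133 kb in HIRA+DAXX and had no peak in control, HIRA or HIRA+HJURP. On 20q, 3 GGAAT-rich sites at chr20:29811605-29829722 carried 0.488 kb in DAXX, 0.77 kb in HIRA+DAXX and 0.619 kb in HIRA+HJURP and no peak of the other sets, so the GGAAT-rich sites of 20q did not follow the order of the sets seen on 21p.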
